A study of Mus musculus with 7 samples.

Results

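The 8 genes described here encode RNA-binding proteins that recognise AU-rich or U-rich sequence in mRNA: Tia1, its paralogue Tial1, Elavl1, Zfp36, Zfp36l1, Zfp36l2, Hnrnpd and Khsrp. They were taken by gene symbol from a count table of 54532 genes, and all 8 were found and passed the filter on low counts, among 16308 genes tested. The question was whether binders of AU-rich mRNA, and the Tia1 paralogue in particular, stood at other levels in knockout than in wild-type tissue. There are 4 motor cortex libraries of genotype CKO, the usual short form of conditional knockout (here cKO), and 3 of genotype WT. Every animal received GA100 virus in the left and right lateral ventricles on postnatal day 0, and tissue was taken 3 months later, so WT also carries the virus. The series title ties the virus to C9orf72 poly-GA, a dipeptide repeat protein of C9orf72 disease, and names TIA1. The labels themselves name neither the deleted gene, the deleted exons, the Cre driver nor the strain, and they do not say how many animals went into each sample, so a p-value here reflects library-to-library spread, which may be technical.

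AU-rich elements are stretches of A and U in the 3′ untranslated region (3′ UTR) of many short-lived mRNAs, such as those of cytokines and immediate early genes. Proteins that bind them compete: ZFP36 and its relatives recruit the CCR4-NOT deadenylase and speed decay, KSRP (Khsrp) and AUF1 (Hnrnpd) are also linked to decay, HuR (Elavl1) stabilises many of the same transcripts, and TIA1 and TIAR (Tial1) silence their translation and gather them in stress granules. Paralogues within these families overlap in the sequences that they bind.

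Library totals ran from 15181390 to 16403202 counts in cKO and from 15213977 to 16463721 in WT. Cortical markers were present in every library: the summed level of 10 excitatory neuron markers was 4622 to 5859 CPM (counts scaled to library size) in cKO and 5865 to 6422 CPM in WT, without overlap. For 8 astrocyte markers the sums were 1516.5 to 1597 CPM in cKO and 1372 to 1510.3 CPM in WT, also without overlap, by a small margin. In such sums the most abundant markers weigh most, and no test was made on them. Among all single genes tested, groups did not overlap for 7.38%. Groups overlapped for inhibitory neurons (927 to 1324 CPM in cKO, 849.7 to 945 CPM in WT), oligodendrocytes (4123 to 8221 CPM in cKO, 3816 to 5842 in WT), their precursors (138 to 162 CPM in cKO, 138 to 159.7 in WT), microglia (323 to 370.03 CPM in cKO, 351 to 427 in WT), endothelium and pericytes (447 to 489.5 CPM in cKO, 412 to 481 in WT) and striatal neurons (1182 to 2069.6 CPM in cKO, 1154.5 to 1457 in WT). Single libraries stood apart in markers of neighbouring tissue. Olfactory bulb markers reached 171 CPM in cKO replicate 3 and 6.01 to 8.56 CPM in the other 6, and choroid plexus markers 176 CPM in cKO replicate 4 and 14.7 to 23.7 CPM in the other 6. Meningeal fibroblast markers were highest in cKO replicate 3 (116 CPM) and WT replicate 1 (102 CPM). All markers on these lists had counts. WT replicate 1 and cKO replicate 1 had 0 counts of the Y-linked gene Ddx3y. It had 1120, 1386 and 1190 counts in cKO 2 to 4 and 1190 and 1073 in WT 2 and 3, so each group mixes libraries with and without it. In bulk tissue fewer cells of a type and less RNA per cell cannot be told apart, and the part that these differences have in the results below was not tested.

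Tia1 (ENSMUSG00000071337, chromosome 6, 86404219 to 86433405, mm10, plus strand) did not differ between groups beyond its spread. It had 81.4, 80.3, 72.7 and 81.9 CPM in the libraries labelled cKO 1 to 4, against 60.6, 95.8 and 68.9 CPM in WT 1 to 3. The cKO values lay inside the WT range, so the groups overlapped fully, and the WT libraries held both the lowest and the highest value. The coefficient of variation was 5.43% in cKO and 24.4% in WT. On the log2 scale cKO minus WT, the sign used for every fold change, came to 0.07 ± 0.13 (SE), and its 95% interval spanned -0.21 to 0.36, a ratio of 0.864 to 1.28. With all libraries the edgeR quasi-likelihood test gave an adjusted p of 0.914. Leaving out single libraries gave log2 fold changes of -0.06 (without WT replicate 1) to 0.28 (without WT replicate 2). In edgeR without WT replicate 2 the unadjusted p was 0.0139 and the adjusted p 0.491. Without any other single library the unadjusted p was 0.413 to 0.917, so the result depends on that WT library. Because the deleted exons are not named, a gene-level count could miss a partial loss of the Tia1 mRNA and does not check the genotype labels. Every direction given here refers to libraries as labelled.

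Tial1 (ENSMUSG00000030846, minus strand, chromosome 7, 128439777 to 128461717) encodes TIAR, the nearest relative of TIA1, and would be the candidate for paralogue compensation. It had 82.4, 74.8, 72.04 and 79.4 CPM in cKO 1 to 4, against 61.8, 78.4 and 75.4 CPM in WT 1 to 3. Only WT replicate 1, which was also lowest for Tia1, lay outside the cKO range. Tial1 thus had a log2 fold change of 0.10 ± 0.09 (SE; 95% interval -0.10 to 0.31; edgeR adjusted p = 0.832), and of 0.00068 without WT replicate 1. For mRNA of the whole tissue, the 95% interval of this fit leaves room for a level up to 1.24 times that of WT, and larger increases lie outside it. With single libraries left out the log2 fold change reached 0.16 (without WT replicate 2), so the limit depends on the libraries. Tia1 was not lower in cKO as labelled and the Cre driver is not named. The interval therefore sets no limit on compensation in a subset of cells or in protein.

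The balance of the pair differed between groups by less than the spread between libraries. The log2 ratio of Tial1 to Tia1, on the CPM scale, was 0.017, -0.10, -0.013 and -0.044 in cKO 1 to 4, against 0.027, -0.29 and 0.13 in WT 1 to 3. Its mean was -0.036 ± 0.052 in cKO (SD, n = 4) and -0.044 ± 0.22 in WT (SD, n = 3), and the cKO values again lay inside the WT range. Tia1 and Tial1 varied together across the libraries, with a Pearson correlation of log2 CPM of 0.80 over 7 libraries, 0.53 over 6 without WT replicate 1, and 0.64 over 5 without WT replicates 1 and 2, the libraries farthest from the Tia1 median. All points share depth and library with every other gene, so this is a description only.

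**Figure D1:**
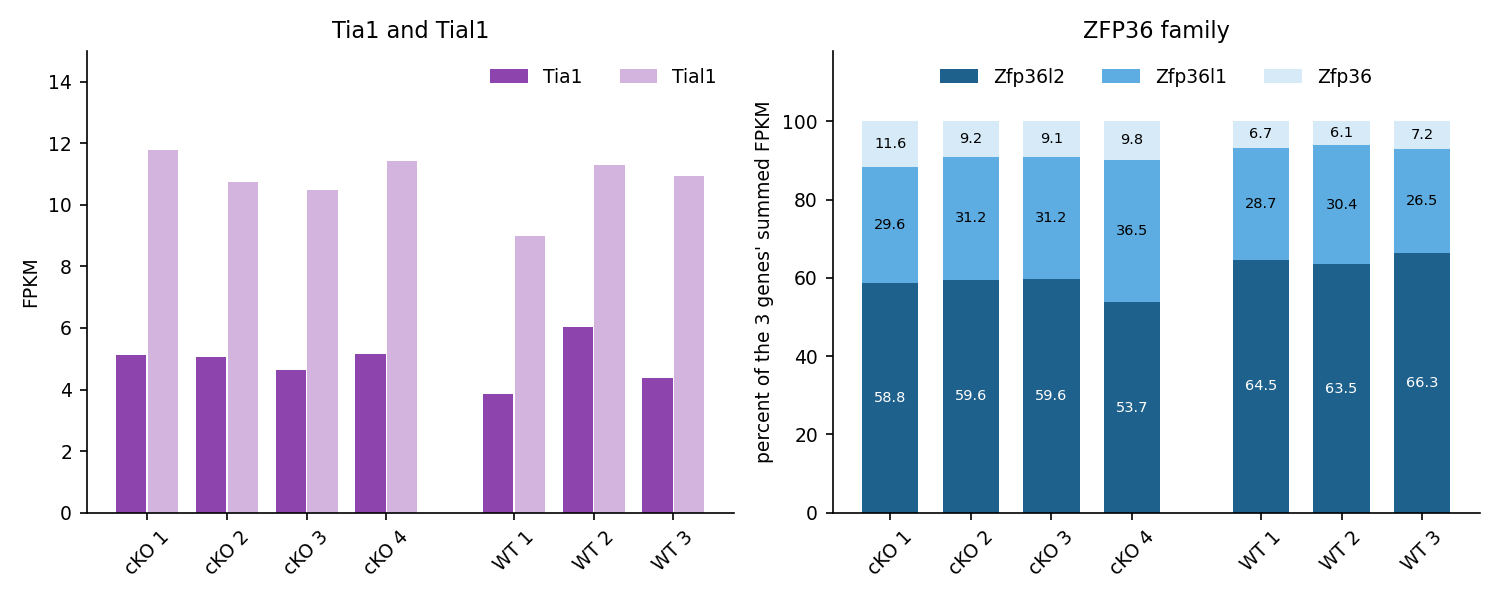
The left panel shows deposited FPKM of Tia1 (dark) and Tial1 (light) in each library, the right panel the percentage of the summed FPKM of Zfp36, Zfp36l1 and Zfp36l2 that each of the 3 genes holds, with cKO 1 to 4 left of WT 1 to 3. The Tial1 bar is 1.87 to 2.50 times the Tia1 bar in all 7 libraries. The Zfp36 segment is larger in every cKO library (9.12% to 11.6%) than in any WT library (6.12% to 7.17%). How often such shares part the groups in other gene families was not computed.

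How the pair ranks depends on the length used. With the deposited gene lengths, 15750 bases for Tia1 and 6903 for Tial1, Tia1 averaged 4.99 ± 0.243 FPKM in cKO (SD, n = 4) and 4.76 ± 1.14 FPKM in WT (SD, n = 3). Tial1 averaged 11.1 ± 0.611 FPKM in cKO and 10.4 ± 1.24 FPKM in WT, which puts Tial1 above Tia1 in every library. The deposited Tia1 length is 3.52 times that of the annotated coding transcript with the longest 3′ UTR (4477 bases), while the deposited Tial1 length is 1.55 times that of its own (4451 bases). Per kilobase of those transcripts the genes were level: 17.7 ± 0.959 CPM per kb for Tia1 in cKO and 16.8 ± 4.10 in WT, and 17.3 ± 1.04 CPM per kb for Tial1 in cKO and 16.1 ± 1.98 in WT (SD, n = 4 and 3). The counts divided are those of the whole deposited gene, so reads outside the chosen transcript are included. How many such reads there are was not measured, and the length ratio differs by gene, down to 1 for Zfp36l1 and Zfp36l2. Levels and ranks on the per-kilobase scale are therefore a description only. On this scale, over the 7 libraries, Khsrp (23.9 CPM per kb) and Hnrnpd (22.5) stood highest with overlapping ranges. They were followed by Tia1 (17.3), Tial1 (16.8) and Elavl1 (15.3), whose ranges also overlapped. Zfp36l2 (8.56), Zfp36l1 (4.28) and Zfp36 (1.47) came last, each with a range apart from its neighbours.

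**Figure D2:**
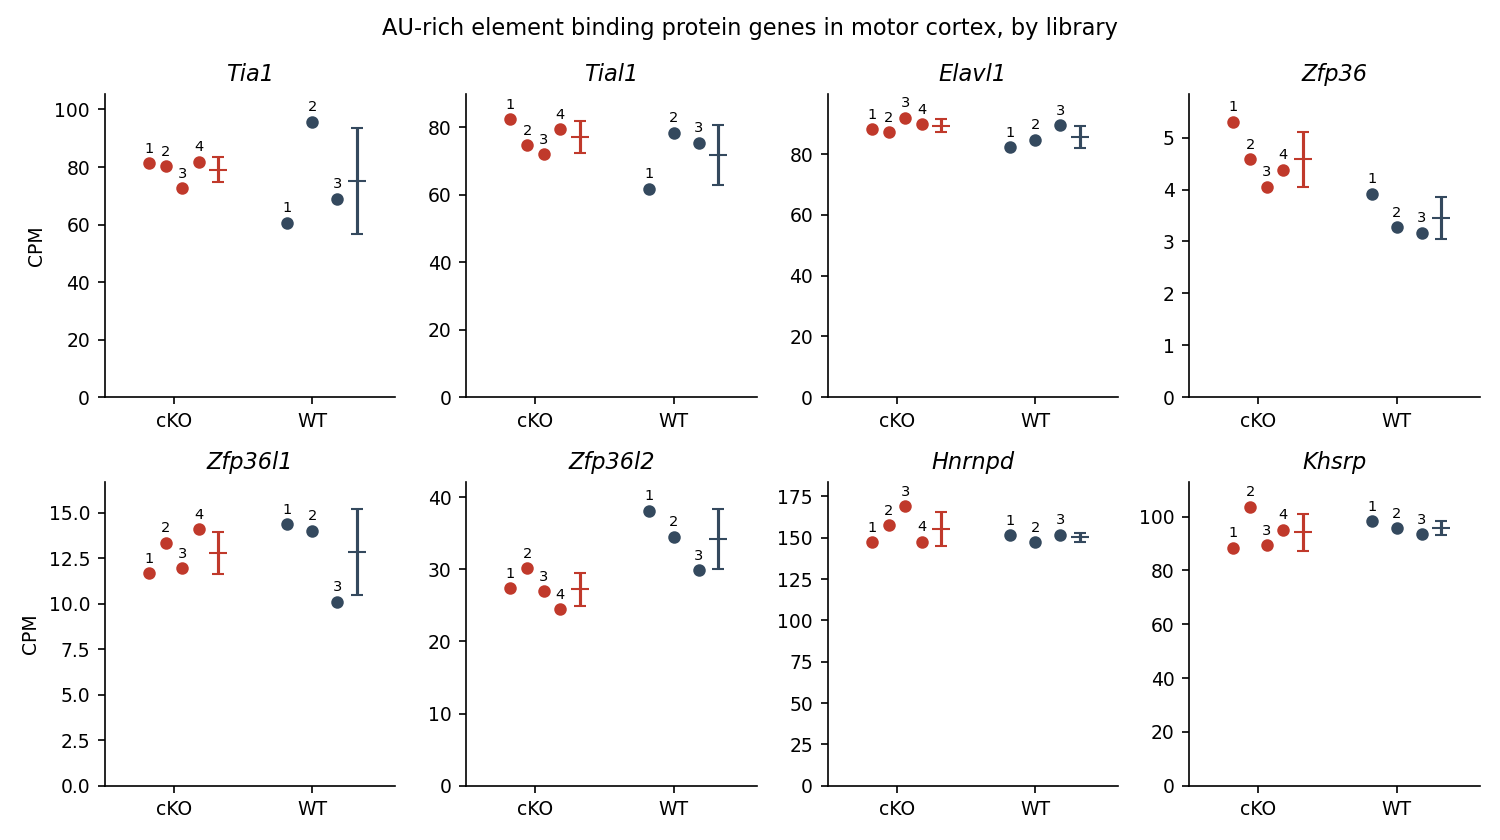
CPM of each gene in every library, numbered by replicate, with the mean and SD beside the points and each vertical axis starting at 0. Zfp36 is the gene whose cKO values (4.06 to 5.31 CPM) all lie above its WT values (3.17 to 3.92 CPM), and Zfp36l2 lies lower in cKO with 1 crossing pair.

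Some of these binders' own mRNAs hold the letters of an AU-rich element, and 1 match from each is shown because the gene that binds such sequence and the gene that holds it are here the same. The nonamer TTATTTATT, the DNA spelling of the sequence that ZFP36 proteins prefer, was searched on the transcript strand of the longest annotated 3′ UTR of each gene (GENCODE vM21, GRCm38, the same assembly as mm10), with overlapping matches counted. It was present in 4 of the 8 genes, Elavl1 and all 3 ZFP36 genes, and absent from that window in Tia1, Tial1, Hnrnpd and Khsrp. Capitals mark the nonamer in these sites.
Elavl1: gtcatgaaaaTTATTTATTtatttattta
Zfp36: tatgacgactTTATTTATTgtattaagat
Zfp36l1: aactgttggaTTATTTATTttagaaattc
Zfp36l2: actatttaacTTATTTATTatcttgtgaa
The Elavl1 site is at chr8:4285788-4285816 (minus strand) and is the most 5′ of 8 overlapping or closely spaced matches in a 3′ UTR of 4218 bases. The single sites are at chr7:28376951-28376979 in Zfp36, chr12:80108167-80108195 in Zfp36l1 and chr17:84184914-84184942 in Zfp36l2, all on the minus strand, in 3′ UTRs of 774, 1835 and 1822 bases. Among genes with a 3′ UTR of similar length, the nonamer was found in 17.9% of 1510 for Elavl1, 4.14% of 2684 for Zfp36, 10.2% of 3139 for Zfp36l1 and 10.04% of 3136 for Zfp36l2. The shorter pentamer ATTTA, which lies inside the nonamer, occurred 17 times in Elavl1, 10 times in Hnrnpd, 9 times in Zfp36l1, 8 times in Tia1, 5 times in Zfp36l2, 3 times each in Tial1 and Zfp36 and 1 time in Khsrp. The median over genes with 3′ UTRs of similar length was 7 for Elavl1, 10 for Hnrnpd, 3 for Zfp36l1, 5 for Tia1, 3 for Zfp36l2, 5 for Tial1, 1 for Zfp36 and 3 for Khsrp, so Hnrnpd was at that median and Tial1 and Khsrp were below it. A match is a string of letters and not a measured binding site.

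The ZFP36 family held the largest log2 fold changes among the 8 genes, Zfp36 upward and Zfp36l2 downward, neither past the adjusted threshold. These proteins carry a pair of CCCH zinc fingers that grip AU-rich sequence and target the mRNA for deadenylation, and Zfp36 itself is an immediate early gene. Zfp36 (ENSMUSG00000044786, minus strand, chromosome 7, 28376784 to 28380253) had 5.31, 4.59, 4.06 and 4.39 CPM in cKO 1 to 4, against 3.92, 3.27 and 3.17 CPM in WT 1 to 3. All cKO values lay above all WT values, by a small margin between cKO replicate 3 and WT replicate 1. The log2 fold change was 0.41 ± 0.19 (SE), with a 95% interval from 0.0011 to 0.82, an unadjusted p of 0.0495 and an edgeR adjusted p of 0.696. It rests on 48 to 88 counts per library.

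Zfp36l2 (ENSMUSG00000045817, minus strand, chromosome 17, 84183931 to 84187947) went the other way. It had 27.4, 30.1, 27.0 and 24.5 CPM in cKO 1 to 4, against 38.1, 34.5 and 29.9 CPM in WT 1 to 3. The groups met at cKO replicate 2, which lay just above WT replicate 3. The mean was 27.2 ± 2.31 CPM in cKO (SD, n = 4) and 34.2 ± 4.15 CPM in WT (SD, n = 3). The log2 fold change was -0.33 ± 0.11 (SE), with a 95% interval from -0.56 to -0.09, an unadjusted p of 0.0103 and an edgeR adjusted p of 0.679. Counts ran from 391 to 623 per library. Without cKO replicates 3 and 4, the libraries with olfactory bulb and choroid plexus markers, the log2 fold change was -0.26 for Zfp36l2 and 0.51 for Zfp36. Without cKO replicate 3 and WT replicate 1, the libraries highest in meningeal markers, it was -0.24 for Zfp36l2 and 0.56 for Zfp36.

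Zfp36l1 (ENSMUSG00000021127, minus strand, chromosome 12, 80107754 to 80113013) had 11.7, 13.4, 11.97 and 14.1 CPM in cKO 1 to 4, against 14.4, 14.02 and 10.1 CPM in WT 1 to 3, with every cKO value inside the WT range. Its log2 fold change was -0.01 ± 0.15 (SE; adjusted p = 0.995). As shares of the summed FPKM of the 3 genes, Zfp36 made up 9.93 ± 1.14% in cKO (SD, n = 4) and 6.68 ± 0.526% in WT (SD, n = 3), and Zfp36l2 made up 57.9 ± 2.83% in cKO and 64.8 ± 1.45% in WT. Neither share overlapped between groups, with Zfp36l2 at 53.7% to 59.6% in cKO and 63.5% to 66.3% in WT. That of Zfp36l1 did overlap, at 29.6% to 36.5% in cKO and 26.5% to 30.4% in WT. The shares sum to a fixed total, so they are not separate measurements, and no test was made on them. They restate the opposite fold changes of Zfp36 and Zfp36l2 and were not set out beforehand. How often shares within other gene families fail to overlap was not computed.

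None of the 8 genes passed the threshold of an adjusted p under 0.05 in edgeR, and neither did any of the 16308 genes tested (0% called). At an unadjusted p under 0.05 stood 2 of the 8, beside 7.14% of all genes tested: Zfp36 with higher values in cKO (4.22% of all genes) and Zfp36l2 with lower values (2.91%). Groups did not overlap for 1 of the 8, Zfp36, beside 7.38% of all genes (3.97% higher and 3.42% lower in cKO). DESeq2 called 6 of the 16308 genes (0.0368%), limma-voom 0 and the fit with replicate number as a block 2 (0.0123%), none of them among the 8, with no adjusted p given by DESeq2 for Zfp36. At an unadjusted p under 0.05 each of these fits held 1 of the 8, Zfp36l2, beside 6.43% of all genes with DESeq2, 6.78% with limma-voom and 7.52% with the block. Zfp36 had unadjusted p-values of 0.0881, 0.0539 and 0.0789 in those fits. Of 12 other settings with all libraries, Zfp36 was under an unadjusted 0.05 in 1, edgeR with the Y-linked covariate (0.0323). In the other 11, edgeR with other scalings and filters included, the values were 0.0522 to 0.0881. Zfp36l2 was under an unadjusted 0.05 in all 12, at 0.00426 to 0.0268. In edgeR it was at 0.0605 without WT replicate 1, and at 0.00438 to 0.0308 without any other single library. Zfp36l2 was at 0.0599 without WT replicate 1 and cKO replicate 3, and at 0.0628 without cKO replicates 3 and 4. Log2 fold changes of the 8 genes had a median of 0.06, beside 0.01 over all genes, and 5 of 8 were above 0, beside 51.8% of all genes.

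Elavl1, Hnrnpd and Khsrp differed little between groups. Elavl1 encodes HuR, the ubiquitous member of a family whose other members are neuronal. It had 88.1, 87.3, 92.1 and 89.8 CPM in cKO 1 to 4, against 82.4, 84.7 and 89.5 CPM in WT 1 to 3. Only WT replicate 3 reached into the cKO range. The log2 fold change was 0.06 ± 0.07 (SE), with a 95% interval from -0.09 to 0.22 (adjusted p = 0.867). Ccl25, on the opposite strand, overlaps Elavl1 (ENSMUSG00000040028, minus strand, chromosome 8, 4285382 to 4325413) by 204 bases and had 93 to 154 counts against 1312 to 1462 for Elavl1, and without a stated strand setting reads in that stretch cannot be told apart. Other annotated genes that overlap any of the 8 had at most 9 counts in a library. Among them, Gm44790 overlaps Tia1 by 6748 bases on the same strand, with 0 counts. Gm26669 overlaps Zfp36l1 by 4967 bases on the opposite strand, with 0 to 2 counts. How reads in such stretches were assigned is not stated, so these low counts do not show that no reads of Tia1 or Zfp36l1 were lost.

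Hnrnpd (ENSMUSG00000000568, minus strand, chromosome 5, 99955935 to 99978938), which encodes AUF1, had 147, 158, 169 and 148 CPM in cKO 1 to 4, against 152, 147 and 152 CPM in WT 1 to 3. The WT libraries lay close together near the low end of the cKO range. Hnrnpd had a log2 fold change of 0.05 ± 0.07 (SE), with a 95% interval from -0.11 to 0.21 (adjusted p = 0.906). Khsrp (ENSMUSG00000007670, minus strand, chromosome 17, 57021051 to 57031522) had 88.4, 104, 89.4 and 95.1 CPM in cKO 1 to 4, against 98.3, 95.8 and 93.4 CPM in WT 1 to 3, so that WT lay inside the cKO range. For Khsrp the log2 fold change was -0.03 ± 0.08 (SE), with a 95% interval from -0.20 to 0.15 (adjusted p = 0.956). As ratios of cKO to WT, the intervals ran from 0.939 to 1.16 for Elavl1, from 0.923 to 1.16 for Hnrnpd and from 0.873 to 1.11 for Khsrp.

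**Figure D3:**
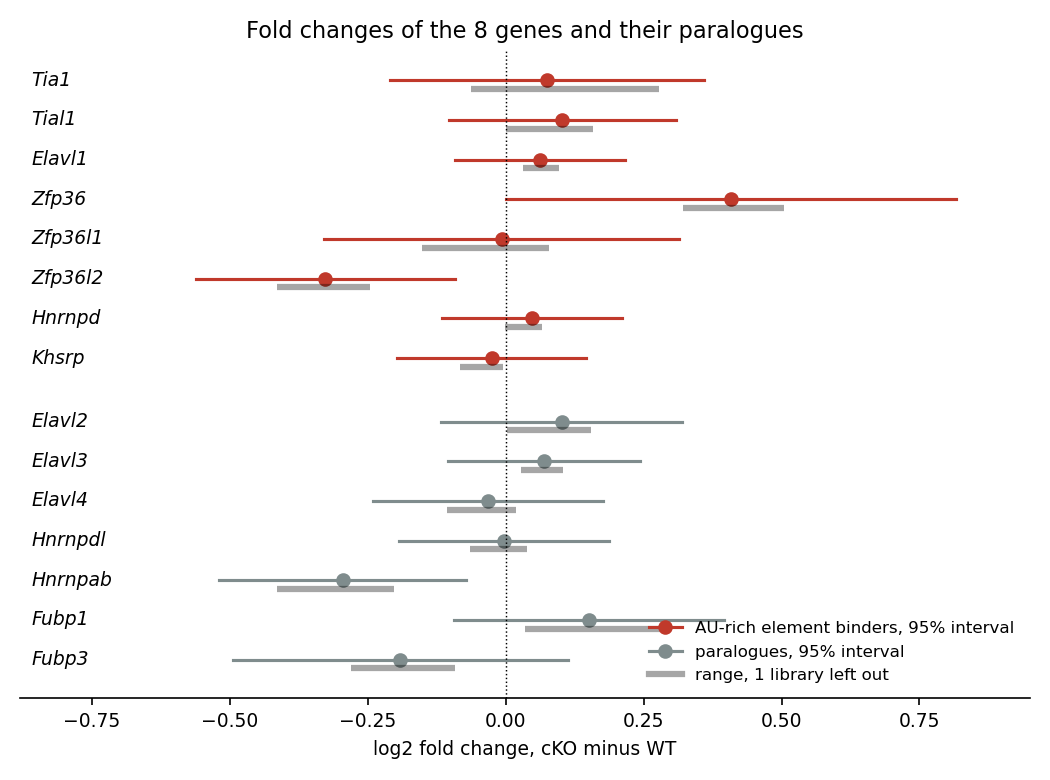
Log2 fold changes (points) with 95% intervals (thin lines) for the 8 genes in red and their 7 measured paralogues in grey, and the range of the fold change when each library is left out in turn (thick grey bars). The intervals of Zfp36, Zfp36l2 and Hnrnpab lie to 1 side of 0, before adjustment over all genes, and the thick bar of Tia1 spans -0.06 to 0.28.

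Paralogues of these genes were measured in 7 of 8 cases; Zfp36l3 had at most 1 count in any library. The neuronal ELAV genes, whose proteins stabilise AU-rich mRNAs in neurons, did not pass the test (adjusted p of 0.844, 0.868 and 0.953): Elavl2 had a log2 fold change of 0.10 ± 0.10 (SE), Elavl3 of 0.07 ± 0.08 and Elavl4 of -0.03 ± 0.10. By deposited FPKM, Elavl1 made up 11.1 ± 0.330% of the 4 ELAV genes in cKO (SD, n = 4) and 11.02 ± 0.604% in WT (SD, n = 3). Hnrnpab, an hnRNP related to Hnrnpd, had 71.4, 63.9, 61.1 and 62.5 CPM in cKO 1 to 4, against 89.9, 67.0 and 81.4 CPM in WT 1 to 3. Its groups overlapped through WT replicate 2, and its log2 fold change was -0.30 ± 0.10 (SE), with an unadjusted p of 0.0139 and an edgeR adjusted p of 0.679. Hnrnpdl, the closer relative of Hnrnpd, had -0.00 ± 0.09. The Khsrp relatives Fubp1 and Fubp3 had 0.15 ± 0.11 and -0.19 ± 0.14. With single libraries left out Fubp1 ran from 0.036 (without WT replicate 1) to 0.28 (without WT replicate 2), and Fubp3 from -0.28 (without cKO replicate 1) to -0.092 (without cKO replicate 3). Of the 7 paralogues 0 passed the adjusted threshold and 1, Hnrnpab, stood at an unadjusted p under 0.05 with lower values in cKO, beside 2.91% of all genes tested.

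Other proteins that bind AU-rich, U-rich or related mRNA sequence were given by a list of 25, all tested. None passed the adjusted threshold, 14 fold changes were above 0 and the median was 0.01. Celf2 and Pum2, the most abundant, had log2 fold changes of -0.03 ± 0.09 and 0.11 ± 0.08 (SE). Msi2, a Musashi protein that binds UAG-containing sequence, had 129, 122, 128 and 129.9 CPM in cKO 1 to 4, against 114, 108 and 107 CPM in WT 1 to 3, without overlap. Its log2 fold change was 0.21 ± 0.07 (SE), with an unadjusted p of 0.0108 and an edgeR adjusted p of 0.679, and it was the only gene of the 25 at an unadjusted p under 0.05, beside 7.14% of all genes tested. Rc3h2, a roquin that binds stem-loops in cytokine mRNAs, had 0.19 ± 0.10. Pcbp1 and Zc3h12a were named after their values were seen. Pcbp1, a poly(C)-binding protein, was lower in each cKO library (107 to 115 CPM in cKO, 119 to 125 CPM in WT) at -0.11 ± 0.07. Zc3h12a, the endonuclease regnase-1, had the lowest value of the list at -0.72 ± 0.50 on 2 to 25 counts. Groups did not overlap for 2 of the 25, Msi2 and Pcbp1, beside 7.38% of all genes tested.

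The decay machinery that these binders recruit was given by 45 genes of the CCR4-NOT and PAN deadenylases, decapping factors, LSM proteins, the exosome and their adaptors, of which 43 were tested. Of these, 25 fold changes were above 0, the median was 0.02, 0 passed the adjusted threshold and 4 stood at an unadjusted p under 0.05 (7.14% over all genes tested). Cnot6, a catalytic deadenylase subunit of CCR4-NOT, had 81.9, 85.7, 106 and 94.1 CPM in cKO 1 to 4, against 69.03, 82.4 and 72.7 CPM in WT 1 to 3, and only WT replicate 2 reached the cKO range. Cnot6 had a log2 fold change of 0.30 ± 0.10 (SE), with an edgeR adjusted p of 0.679. Tob2, an adaptor that links RNA-binding proteins to that complex, had 33.6, 36.5, 33.01 and 34.1 CPM in cKO 1 to 4, against 28.4, 27.5 and 29.6 CPM in WT 1 to 3, without overlap, and a log2 fold change of 0.27 ± 0.09 (SE; adjusted p = 0.679). The others at an unadjusted p under 0.05, named after their values were seen, were Cnot6l (0.28 ± 0.11), the paralogue of Cnot6, and Cnot8 (-0.22 ± 0.09), another deadenylase subunit. Parn, a poly(A)-specific ribonuclease also named after its values were seen, had 16.8 to 18.3 CPM in cKO and 18.6 to 21.3 CPM in WT. Groups did not overlap for 4 of the 43, Tob2 and Cnot6l higher and Cnot8 and Parn lower in cKO. The share over all genes tested was 7.38% (3.97% higher and 3.42% lower in cKO). The abundant members Ddx6 and Pabpc1 had 0.08 ± 0.09 and 0.02 ± 0.08.

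Transcripts known for AU-rich elements were given by a list of 35. The nonamer was present in the 3′ UTR of 13 of them by the search described above, beside 7.66% of 21037 protein-coding genes of any 3′ UTR length. The 7 cytokine and chemokine genes of the list, among them Tnf and Il6, had at most 8 counts in any library and were not tested. Of the 28 tested, 18 had fold changes above 0, the median was 0.07, 0 passed the adjusted threshold and 5 stood at an unadjusted p under 0.05, all with higher values in cKO (4.22% of all genes tested). Sgk1, a serum- and glucocorticoid-regulated kinase, had 210.4, 185, 158 and 245 CPM in cKO 1 to 4, against 102, 148 and 159 CPM in WT 1 to 3, so that cKO replicate 3 lay beside WT replicate 3. Its log2 fold change was 0.55 ± 0.16 (SE), with an edgeR adjusted p of 0.679. Fosb, an immediate early transcription factor, had 20.5, 30.7, 34.7 and 32.8 CPM in cKO 1 to 4, against 22.5, 21.2 and 20.7 CPM in WT 1 to 3, with cKO replicate 1 below WT. For Fosb the log2 fold change was 0.46 ± 0.16 (SE; adjusted p = 0.679). Egr1 and Egr3, the most abundant, had 0.26 ± 0.10 and 0.08 ± 0.15. Fos (0.53 ± 0.18) and Irs2 (0.26 ± 0.09) were named after their values were seen, and their groups did not overlap. They were the only 2 of the 28 without overlap, beside 7.38% of all genes tested. Of the 5 genes at an unadjusted p under 0.05, Fos held the nonamer 1 time in the 3′ UTR searched. Sgk1, Fosb, Egr1 and Irs2 held it 0 times. The pentamer ATTTA occurred 4 times in Fos, 7 times in Irs2, 3 times in Sgk1, 2 times in Egr1 and 1 time in Fosb. Medians over genes with 3′ UTRs of similar length were 1, 4, 2, 2 and 4, so Egr1 was at its median and Fosb below. On the whole list, Ier2 and Fas held the pentamer 0 times. Fos was at 38.6 CPM in cKO replicate 3, the library with olfactory bulb markers, and at 21.8 to 25.5 CPM in the other cKO libraries, and its log2 fold change was 0.31 without that replicate. With no filter on low counts edgeR called Fos, Fosb and Sgk1, a setting that called 198 of 31277 genes.

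The p38-MK2 pathway phosphorylates ZFP36, 14-3-3 proteins then hold it inactive, and PP2A reverses this. Of the 18 genes on a list for this signalling, 17 were tested, 8 with fold changes above 0, with a median of -0.01 and 0 past the adjusted threshold. Map2k6, a kinase that activates p38, had 9.95, 8.45, 11.2 and 10.3 CPM in cKO 1 to 4, against 14.01, 12.4 and 11.95 CPM in WT 1 to 3, without overlap. Its log2 fold change was -0.36 ± 0.14 (SE), with an unadjusted p of 0.0216 and an edgeR adjusted p of 0.694. It was the only 1 of the 17 under an unadjusted 0.05, beside 7.14% of all genes tested. Map2k6 was also the only 1 without overlap, beside 7.38% of all genes tested. Of 6 tested 14-3-3 genes 4 had log2 fold changes below 0 and 2 above, none at an unadjusted p under 0.05. Ywhag, Ywhah and Ywhaz had -0.11 ± 0.08, -0.11 ± 0.08 and -0.06 ± 0.10, and, outside the naming rule, Ywhae had 0.05 ± 0.09 and Ywhaq 0.06 ± 0.09.

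**Figure D4:**
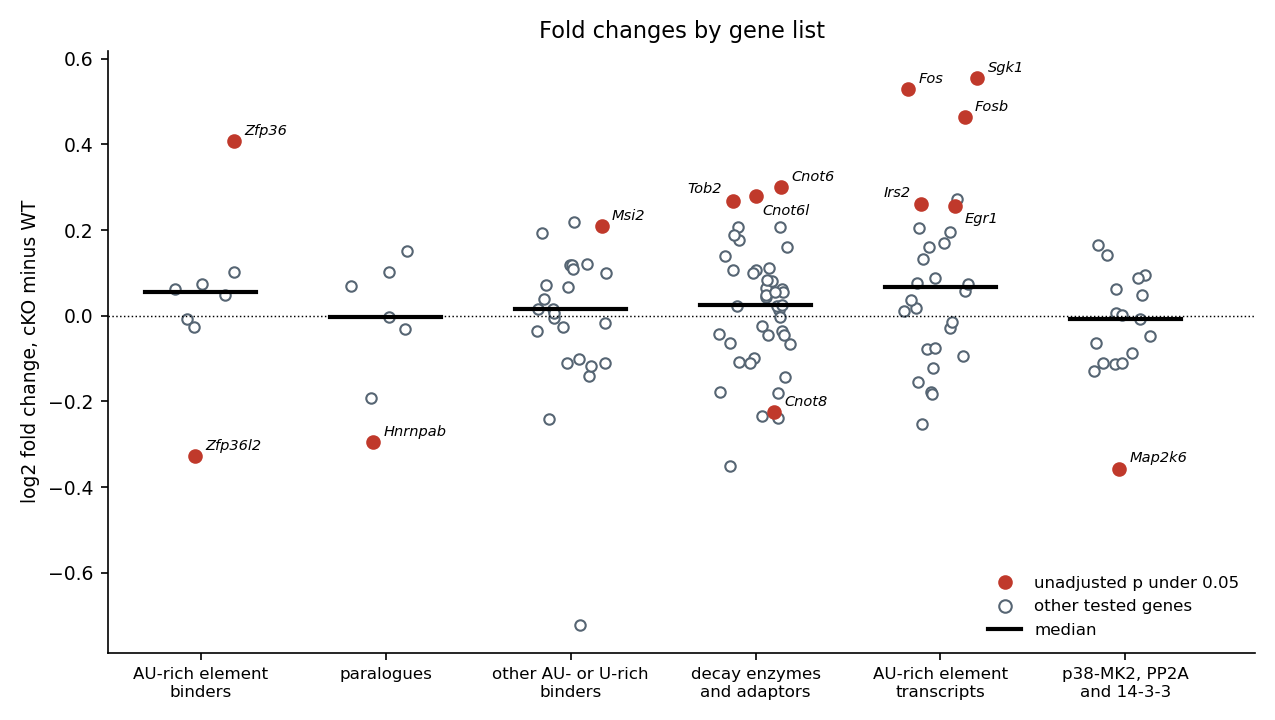
Log2 fold changes of every tested gene of each list (points, with horizontal scatter added for legibility), with genes at an unadjusted p under 0.05 filled and named, and the median of each list as a black line. List medians lie between -0.01 and 0.07, beside 0.01 over all genes tested, and Zc3h12a is the low point at -0.72.

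The genes whose pattern over the 7 libraries was most like that of Tia1, by Pearson correlation of log2 CPM among 11616 genes with a mean of at least 5 CPM, were Rnpc3 (0.99), Lrrc27 (0.99), Gm46430 (0.98), Zfp182 (0.97) and Cep95 (0.97). Rnpc3, a protein of the minor spliceosome, had 20.7, 20.8, 18.5 and 20.99 CPM in cKO 1 to 4, against 16.2, 26.0 and 18.03 CPM in WT 1 to 3. As with Tia1, WT replicate 2 was the highest and WT replicate 1 the lowest library. Of the genes compared, 101 had a correlation above 0.9 with Tia1. Over 5 libraries, without WT replicates 1 and 2, it was 0.99 for Rnpc3, 0.93 for Lrrc27, 0.94 for Gm46430, 0.97 for Zfp182 and 0.89 for Cep95. These genes were picked as the highest of 11616, and no chance level was computed.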

How the data were processed

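RNA was sequenced from 7 motor cortex samples. Per the labels' protocols, cDNA came from fragmented mRNA with random primers, and no strand marking is described. The authors deposited raw counts and FPKM per gene. The genome build mm10 and the tools featureCounts (1.5.0-p3) and DESeq2 (1.20.0) are named, with no role, per the submitters' processing notes. Not given in the sources used here: aligner, annotation release, strand setting and handling of multi-mapped reads. The deposited FPKM equal count over gene length and a library total 0.968 to 1.02 times the sum of counts.

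Counts were tested with edgeR 4.0.16 (R 4.3.3): TMM factors, filterByExpr, quasi-likelihood F test with genotype as factor, Benjamini-Hochberg adjustment over 16308 genes, threshold 0.05. Standard errors are the log2 fold change over the root of F, and intervals are 95% intervals. CPM use TMM-scaled totals of the tested genes. Alternatives used DESeq2 1.42.0 and limma 3.58.1. Fits were tested on simulated data. 3′ UTRs came from GENCODE vM21, 1 transcript per gene. Figures used matplotlib 3.10.9.

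Members, lists and tests were chosen with earlier results of these data known. The rule named all 8 genes and measured paralogues, and, from each other list, genes past the threshold or, with none, the 2 most abundant by mean CPM and the 2 of smallest p, plus the 5 genes most correlated with Tia1. Replicate numbers are shared by the groups. Correlations of deviations from group means were 0.110 for number 1, 0.128 for number 2 and 0.122 for number 3. A correlation over 0.1 in every same-numbered pair was the criterion for treating the numbers as pairing. Pairing entered only the alternative fit with replicate number as a block. The reported fit has genotype only and is unpaired. Libraries with different numbers also passed 0.1, up to 0.210, so the criterion does not single out the same-numbered pairs. This pairing is weak, and number 4 has no WT partner.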

Additional observations from a re-analysis of the deposited data

Results flagged for a closer look

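In cKO, the library of replicate 3 lay far from the other 3 for Tia1, at 72.7 CPM with the nearest at 80.3 CPM, and for Elavl2, at 117 CPM with the nearest at 95.05 CPM. That library is also the one with olfactory bulb markers at 171 CPM, and their part in these values was not tested. For Pcbp1, cKO replicate 2 lay apart at 107 CPM with the nearest at 114 CPM. The gap to the nearest library, as a share of the range, was 0.832, 0.829 and 0.855 for the 3 genes, against a critical value of 0.829 for 4 samples. With 39 measures examined, chance flags about 1 in 20.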

How the results depend on the processing

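None of the 8 genes was called under 14 other settings or with any 1 of 7 libraries left out. Tial1, Elavl1, Zfp36 and Zfp36l2 kept their direction throughout. With single libraries left out Zfp36l2 ran from -0.42 to -0.25 and Zfp36 from 0.32 to 0.50 on the log2 scale. Genes called over the whole table numbered 0 in the reported fit, 198 with no filter, 6 with DESeq2, 3 with limma-trend on log2(FPKM + 1) and no filter, and 0 to 3 with single libraries left out. They numbered 1 without both WT replicate 1 and cKO replicate 3, and 1 without both cKO replicates 3 and 4, a choice made after seeing the data. With the replicate block 2 were called, neither on any list here, and pairing changed no other call. With no filter edgeR called 3 genes of the list of transcripts known for AU-rich elements (adjusted p of 1.00e-05 for Sgk1, 0.0116 for Fos and 0.0391 for Fosb). Signalling genes above 0 numbered 5 with limma-trend on log2(FPKM + 1) and on log2(FPKM + 0.1), against 8. The causes were not tested.

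Directions turned for some genes with small log2 fold changes in the reported fit, the largest of them Elavl2 at 0.10. Without WT replicate 1 and cKO replicate 3 the log2 fold change was -0.022 for Tia1, 0.11 for Zfp36l1, 0.017 for Khsrp, 0.046 for Hnrnpdl -0.021 for Pabpc1 and -0.12 for Celf2, which kept its sign. Without cKO replicates 3 and 4 it was -0.0030 for Elavl2, 0.017 for Hnrnpdl, -0.00098 for Ddx6 and -0.0052 for Pabpc1. With the replicate block it was 0.023 for Elavl4, 0.0054 for Celf2 and -0.010 for Egr3. It was 0.0019 for Zfp36l1 with limma-voom and 0.0043 for Hnrnpdl with the Y-linked covariate. With single libraries left out, values ran from -0.062 to 0.28 for Tia1, -0.15 to 0.079 for Zfp36l1, -0.0020 to 0.066 for Hnrnpd, -0.11 to 0.019 for Elavl4, -0.066 to 0.038 for Hnrnpdl, -0.082 to -0.0053 for Khsrp, 0.0032 to 0.15 for Elavl2, 0.0079 to 0.12 for Ddx6, -0.099 to 0.0026 for Celf2, -0.036 to 0.054 for Pabpc1 and -0.036 to 0.21 for Egr3. Among the 8 genes Zfp36 had the fewest counts, 48 to 88 per library.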
